A study of Mus musculus with 56 samples.

Results

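The chemokine receptor gene Cx3cr1 was examined with 3 other macrophage genes, Fcrls, Olfml3 and Gpr34, and with 6 genes of TGF-beta signalling, Tgfb1, Tgfbr1, Tgfbr2, Pmepa1, Ski and Smad7. These 10 genes were matched by symbol and were found once each among 52636 gene rows in heart and 57010 gene rows in bone, muscle and skin. They were chosen by name with earlier results of these data in view. The difference of Cx3cr1 between the arms in bone at days 7 and 10 was among those results, and which other values weighed in the choice is not recorded. Differences between the arms in bone are therefore given as a description with no test of the 10 genes. The other comparisons were tested, and their p-values do not allow for the choice of genes.

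The study asked how monocytes and macrophages of injured tissue differ when regulatory T cells are removed. Foxp3(DTR/GFP) mice, called FDG, carry the diphtheria toxin receptor and green fluorescent protein at the Foxp3 locus, so that the toxin kills their regulatory T cells. FDG mice given diphtheria toxin (DT) formed the Treg-depleted arm, and wild-type C57BL/6J mice given the same DT formed the control arm. All mice were 10 weeks old and both arms received 20 ng/g DT, so the toxin itself was shared and the strain was not. Dosing ended after 1 week, so bone at day 10 was sampled after the last dose. Each mouse had 1 injury: infarction of the heart, a cranial bone defect, a volumetric muscle loss defect or a full-thickness skin punch. Monocytes and macrophages were sorted at days 4 and 7 from heart, muscle and skin and at days 7 and 10 from bone, and their RNA was sequenced in bulk. Heart and muscle had 3 libraries in each arm at each day, skin had 4, and bone had 5 at day 7 and 3 at day 10, which makes 56 libraries in 16 groups. Whether each library was a different animal is not in the labels, so p-values measure the spread between libraries, which may be technical.

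TGF-beta is secreted in a latent form, is released outside the cell, and signals through a complex of TGFBR2 and TGFBR1 to SMAD transcription factors. PMEPA1, SKI and SMAD7 each restrain that signal, and Pmepa1 and Smad7 are themselves induced by it. In the brain, TGF-beta is required for the mature gene programme of microglia, of which Cx3cr1, Fcrls, Olfml3 and Gpr34 are well known members. CX3CR1 is the receptor for fractalkine; it is low on freshly recruited classical monocytes and high on non-classical monocytes and on many resident macrophages. No group of the study blocked TGF-beta, so dependence on it was not measured.

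Library totals ranged from 2642452 to 9788811 counts in heart, from 2318268 to 5835113 in bone, from 3439692 to 6397434 in muscle and from 3013776 to 5392932 in skin. Levels are given as CPM, a library's counts for a gene scaled to a fixed total and set within each table, and heart, which is a separate table, is not compared with the other tissues. All 8 defining monocyte and macrophage markers, Lyz2 and Cd68 among them, were present in every library. Their summed level was lower in every depleted library than in any control in muscle at day 7 (10430 to 10630 against 12790 to 16220 CPM), heart at day 7 (21710 to 26820 against 28030 to 34230), bone at day 7 (7711 to 11530 against 11810 to 22360) and bone at day 10 (7519 to 9555 against 12050 to 13110). It overlapped between the arms in skin at both days and in heart and muscle at day 4, and its part in the results was not tested. The microglia markers Sall1, Siglech and Slc2a5 were at or near 0, with highest values of 0.419, 2.26 and 1.71 CPM. P2ry12 and Tmem119, which macrophages outside the brain can also express, reached 53.8 and 326 CPM. In the GENCODE annotation of GRCm38 the counted genes, exons and UTRs included, are Cx3cr1 at chr9:119901616-120069879, Fcrls at chr3:87250758-87263738 and Olfml3 at chr3:103722222-103738001 on the minus strand, and Gpr34 at chrX:13632089-13640858 on the plus strand. Tgfb1 lies at chr7:25687002-25705077 and Tgfbr1 at chr4:47353222-47414931 on the plus strand, and Tgfbr2 at chr9:116084293-116175360, Pmepa1 at chr2:173224458-173276533 and Ski at chr4:155154075-155222592 on the minus strand. No member shared more than 1.79% of its 31-base transcript words with another gene, and of the 10 genes Cx3cr1 alone overlapped exons of another gene, Gm33858 on the opposite strand, whose reads cannot be told apart unless strand was used in counting.

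The promoters of Cx3cr1, Fcrls and Olfml3 are shown because these genes were called lower together in depleted muscle at day 7 and depleted skin at both days. Gpr34 was called lower in the same comparisons, but no RefSeq window was matched for it. The windows run from 250 bases before to 50 bases after the RefSeq start, 5′ to 3′ on the gene's strand (GRCm38.p6). Cx3cr1 lies at chr9:120068247-120068546, Fcrls at chr3:87263475-87263774 and Olfml3 at chr3:103737952-103738251, all on the minus strand. Capitals mark the SMAD core word CAGAC or its reverse complement GTCTG, and the PU.1 core word GAGGAA or its reverse complement TTCCTC.
Cx3cr1: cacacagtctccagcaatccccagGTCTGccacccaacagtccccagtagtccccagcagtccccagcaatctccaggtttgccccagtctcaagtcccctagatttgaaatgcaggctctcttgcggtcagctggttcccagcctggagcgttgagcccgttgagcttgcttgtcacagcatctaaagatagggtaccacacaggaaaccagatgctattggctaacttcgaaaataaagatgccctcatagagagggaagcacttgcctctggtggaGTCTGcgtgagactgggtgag
Fcrls: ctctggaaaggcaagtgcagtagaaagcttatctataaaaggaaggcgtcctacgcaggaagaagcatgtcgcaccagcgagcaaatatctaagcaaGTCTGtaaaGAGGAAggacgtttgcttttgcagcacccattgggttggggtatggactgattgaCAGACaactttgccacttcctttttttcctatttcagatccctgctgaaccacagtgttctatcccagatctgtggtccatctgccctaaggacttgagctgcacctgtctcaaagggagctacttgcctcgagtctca
Olfml3: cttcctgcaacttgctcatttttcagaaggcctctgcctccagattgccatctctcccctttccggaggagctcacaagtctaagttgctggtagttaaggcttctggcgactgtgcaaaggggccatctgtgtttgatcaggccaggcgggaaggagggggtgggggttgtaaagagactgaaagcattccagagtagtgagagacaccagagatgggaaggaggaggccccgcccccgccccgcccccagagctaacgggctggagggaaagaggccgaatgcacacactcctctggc
The SMAD word occurred 2 times in the Cx3cr1 window and 2 times in the Fcrls window, and Olfml3 held 0 of either word. Fcrls also held 1 PU.1 word. Of 32851 promoter windows of 300 bases, 49.6% held the SMAD word and 28.3% the PU.1 word, so a match is common. RefSeq windows were matched for 7 of the 10 genes. Tgfbr2 held 1 of each word, and Tgfb1, Tgfbr1 and Ski held 0 of either.

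Cx3cr1 was lower in the depleted arm in muscle at day 7 and in skin at both days, and was nearly equal between the arms in muscle at day 4. In muscle at day 4 the depleted libraries read 295, 269 and 237 CPM and the controls 254, 315 and 243 CPM, a log2 change of -0.02 ± 0.13 (SE; edgeR adjusted p = 0.981). At day 7 the depleted libraries read 36.1, 39.3 and 34.5 CPM and the controls 166, 192 and 187 CPM. The groups did not overlap at day 7, with a log2 change of -2.31 ± 0.14 (edgeR adjusted p = 1.35e-08). In skin at day 4 Cx3cr1 read 31.5, 19.4, 13.8 and 15.4 CPM in the depleted arm and 103, 69.5, 133 and 162 CPM in controls. The skin values at day 7 were 16.0, 16.6, 18.9 and 25.2 CPM against 156, 98.1, 199 and 132 CPM. Every depleted skin library lay below every control of its day, and the log2 changes were -2.54 ± 0.29 (edgeR adjusted p = 2.96e-05) and -2.90 ± 0.29 (edgeR adjusted p = 3.99e-06). In a bulk library, fewer cells that express a gene and less of its RNA per cell cannot be told apart.

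In bone, whose values took part in the choice of Cx3cr1, the depleted libraries read 41.9, 45.7, 27.6, 24.8 and 45.5 CPM at day 7 and the controls 197, 208, 204, 167 and 265 CPM. At day 10 they read 16.7, 24.7 and 20.5 CPM against 116, 106 and 89.9 CPM. The log2 differences were -2.51 ± 0.18 and -2.32 ± 0.24 (SE). Rn18s-rs5, an 18S ribosomal RNA sequence, had a higher median in depleted bone, at 60000 against 30460 CPM at day 7 and 90270 against 19020 CPM at day 10. Its arms overlapped at day 7, at 47490 to 102700 against 13230 to 83910 CPM. With its level as a covariate the Cx3cr1 differences in bone were -2.40 and -2.15. Rn18s-rs5 was also higher in depleted muscle at day 7, at 16260 to 46610 CPM against 5896 to 9909 CPM. In depleted skin at day 7 its median was 23230 against 10330 CPM, with overlapping arms. Its part in the muscle and skin results was not tested.

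The arms of heart overlapped for Cx3cr1. Its columns with no day in their names were taken as day 7. At day 4 the depleted libraries F1, F2 and F3 read 384, 276 and 194 CPM and the controls W1, W3 and W4 read 264, 208 and 230 CPM. At day 7 the depleted libraries FDG1, FDG2 and FDG3 read 434, 294 and 586 CPM and the controls WT1, WT3 and WT4 read 586, 773 and 540 CPM. The log2 changes were 0.28 ± 0.29 (edgeR adjusted p = 0.613) and -0.53 ± 0.28 (edgeR adjusted p = 0.356).

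Among the controls of bone, muscle and skin, the mean level of Cx3cr1 ran from muscle at day 4 (271 CPM ± 38.8, SD, n = 3) through bone at day 7 (208 ± 35.8, n = 5), muscle at day 7 (182 ± 13.8, n = 3), skin at day 7 (146 ± 42.6, n = 4) and skin at day 4 (117 ± 39.8, n = 4) to bone at day 10 (104 ± 13.3, n = 3). The ranges of each pair of neighbours in this order overlapped. The depleted groups formed a lower order, apart from muscle at day 4 (267 CPM ± 29.0, SD, n = 3). Below it came bone at day 7 (37.1 ± 10.1, n = 5), muscle at day 7 (36.6 ± 2.42, n = 3), bone at day 10 (20.6 ± 3.99, n = 3), skin at day 4 (20.0 ± 7.98, n = 4) and skin at day 7 (19.2 ± 4.19, n = 4). Of those neighbours, muscle at day 7 and bone at day 10 did not overlap, and the other pairs below muscle at day 4 did.

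Fcrls, which encodes an Fc receptor-like scavenger molecule of microglia and macrophages, was lower in the depleted arm in heart at day 7, in muscle at day 7 and in skin at both days. In heart at day 7 it read 375, 475 and 827 CPM in depleted libraries and 1803, 1698 and 1572 CPM in controls (log2 change -1.60 ± 0.32, edgeR adjusted p = 0.0306). The heart groups did not overlap at either day. At day 4 the libraries read 505, 572 and 283 CPM against 1192, 851 and 917 CPM (log2 change -1.12 ± 0.32), and edgeR adjusted p = 0.0508 did not pass the threshold of 0.05. The day 4 change was called by DESeq2, with RLE factors, with the compared groups alone and without F2. The day 7 call was lost without FDG1, FDG2, WT1, WT3 or WT4, with an edgeR adjusted p of up to 0.0979.

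In skin at day 4 Fcrls read 27.9, 20.7, 19.6 and 12.2 CPM in depleted libraries and 112, 113, 111 and 155 CPM in controls, with a log2 change of -2.62 ± 0.25 (edgeR adjusted p = 1.53e-06). At day 7 the skin values were 51.6, 47.2, 47.9 and 65.0 CPM against 96.1, 60.4, 94.9 and 151 CPM. The skin groups were apart at day 4 and overlapped at day 7, where the log2 change was -0.90 ± 0.23 (edgeR adjusted p = 0.0195). In muscle the groups overlapped at day 4, and at day 7 they read 93.3, 132 and 102 CPM against 236, 167 and 183 CPM (log2 change -0.85 ± 0.20, edgeR adjusted p = 0.0109). The day 7 call in skin was lost without depleted library 1, depleted library 2 or control library 4 (edgeR adjusted p up to 0.0854), and the one in muscle without depleted library 3 or control library 1 (up to 0.0601). In bone Fcrls differed by -1.94 ± 0.31 at day 7, where the depleted libraries spanned 2.81 to 13.5 CPM and the controls 18.1 to 33.9 CPM, and by -0.47 ± 0.38 at day 10, where the arms overlapped.

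Gpr34, a receptor for lysophosphatidylserine, fell in muscle at day 7 and in skin at both days. Muscle at day 7 read 10.9, 16.1 and 5.23 CPM in depleted libraries and 37.1, 35.7 and 46.1 CPM in controls (log2 change -1.90 ± 0.26, edgeR adjusted p = 0.000139). Skin at day 4 read 4.31, 6.46, 4.89 and 6.85 CPM against 16.7, 16.6, 19.2 and 31.2 CPM, and at day 7 7.29, 4.66, 10.1 and 11.8 CPM against 36.2, 23.1, 29.2 and 45.2 CPM. No depleted library reached a control in these comparisons, and the skin changes were -1.88 ± 0.29 (edgeR adjusted p = 0.000385) and -1.94 ± 0.28 (edgeR adjusted p = 6.86e-05). In muscle at day 4 the arms read 53.3, 60.9 and 49.7 CPM and 58.6, 54.9 and 54.8 CPM, a log2 change of -0.04 ± 0.22. Heart at day 7 read 56.8, 52.9 and 31.7 CPM against 102, 142 and 114 CPM, apart but with edgeR adjusted p = 0.0569 for a change of -1.33 ± 0.33, which DESeq2, the compared groups alone and the fit without the filter called. In bone it was scarce, at 1.72 to 9.13 CPM in all 16 libraries, and the arms overlapped at both days (differences -0.87 ± 0.38 and -0.38 ± 0.53).

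Olfml3, which encodes a secreted olfactomedin-like protein, fell in heart and muscle at day 7 and in skin at both days. Its log2 changes were -0.76 ± 0.16 in heart at day 7 (edgeR adjusted p = 0.0156), -1.10 ± 0.24 in muscle at day 7 (0.0058), -0.88 ± 0.22 in skin at day 4 (0.0242) and -1.18 ± 0.22 in skin at day 7 (0.00134). In heart at day 7 the libraries read 72.7, 58.1 and 49.2 CPM in the depleted arm and 99.3, 92.2 and 113 CPM in controls. Muscle at day 7 read 10.7, 5.01 and 11.1 CPM against 16.3, 22.5 and 19.9 CPM. In skin the depleted libraries spanned 9.21 to 14.3 CPM at day 4 and 10.3 to 12.5 CPM at day 7, and the controls 18.1 to 34.1 and 22.2 to 29.8 CPM. None of these 4 comparisons had overlapping groups. The heart call was lost without FDG2 or WT4 (edgeR adjusted p up to 0.0777), and the skin call at day 4 without depleted library 3 or 4 or control library 1 or 2 (up to 0.129). In bone the differences were -1.79 ± 0.46 at day 7, with depleted libraries from 0.780 to 10.4 CPM and controls from 6.65 to 28.4 CPM, and -1.07 ± 0.60 at day 10.

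**Figure D1:**
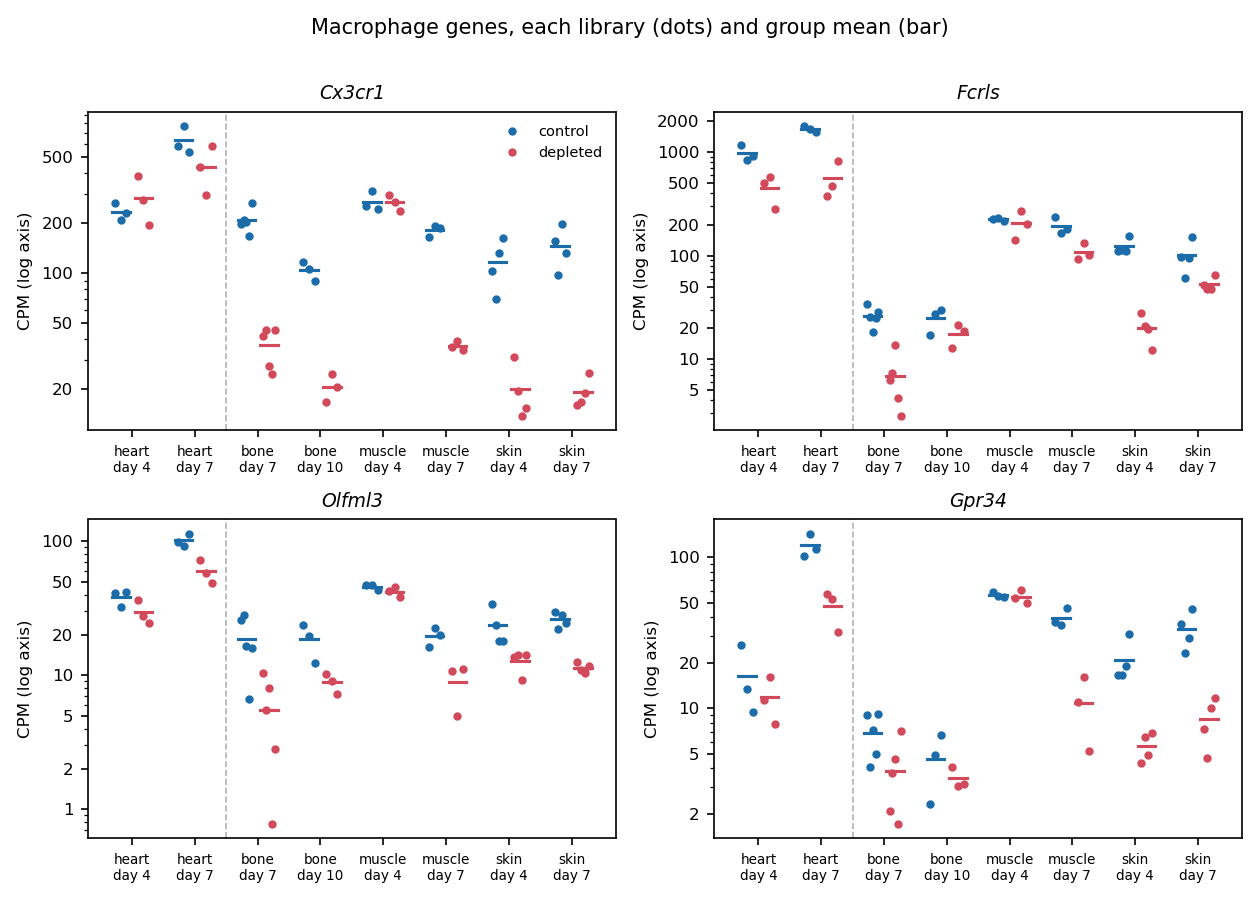
CPM (log axis) of Cx3cr1, Fcrls, Olfml3 and Gpr34 in each library (dots) with the group mean (bar), for control and Treg-depleted arms; the dashed line separates heart, which was scaled on its own. In muscle the arms coincide at day 4 and separate at day 7, where Cx3cr1 averages 36.6 CPM in the depleted arm and 182 CPM in controls.

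The ligand gene Tgfb1 did not pass the test in any tested comparison between the arms. Its group means lay between 8.12 and 10.5 CPM in heart and between 11.3 and 29.2 CPM in the other tissues. The one tested comparison with separate groups was skin at day 4, where the depleted libraries read 25.6, 38.1, 29.6 and 23.6 CPM and the controls 19.5, 21.4, 15.4 and 22.0 CPM (log2 change 0.57 ± 0.19, edgeR adjusted p = 0.107). In bone the log2 differences were -0.07 ± 0.18 at day 7 and -0.21 ± 0.23 at day 10.

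Tgfbr1, the type I receptor kinase, fell in muscle at day 7 and in skin at day 4, and rose in heart at day 4. Its muscle libraries at day 7 read 34.9, 22.9 and 31.4 CPM in depleted libraries and 43.6, 57.2 and 53.2 CPM in controls (log2 change -0.78 ± 0.17, edgeR adjusted p = 0.00575). Its skin libraries at day 4 read 19.8, 18.4, 10.7 and 21.0 CPM against 29.5, 33.2, 37.3 and 38.3 CPM (-0.98 ± 0.21, edgeR adjusted p = 0.00879). Its heart libraries at day 4 read 94.3, 92.9 and 78.5 CPM against 78.1, 57.6 and 55.0 CPM (0.47 ± 0.14, edgeR adjusted p = 0.0366). The arms were apart in each of these, in heart by a narrow margin, and the heart call was lost without F1, F2, W3 or W4 (edgeR adjusted p up to 0.176). In skin at day 7 the change was -0.58 ± 0.21 (edgeR adjusted p = 0.104). In bone the arms did not overlap at either day, with differences of -1.19 ± 0.16 and -0.59 ± 0.21.

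Tgfbr2, the type II receptor that binds the ligand first, did not pass the test in heart, muscle or skin. It came nearest in skin at day 4, where it read 26.9, 31.6, 17.0 and 28.9 CPM in depleted libraries and 38.1, 42.0, 42.4 and 41.5 CPM in controls (log2 change -0.66 ± 0.19, edgeR adjusted p = 0.0516). Those groups were apart, and the call was made without the filter on low counts, by DESeq2 and without depleted library 2 (adjusted p down to 0.0273). In bone at day 7 the depleted libraries spanned 10.4 to 14.7 CPM and the controls 21.3 to 33.7 CPM, a difference of -1.22 ± 0.18, and at day 10 the difference was -0.60 ± 0.22.

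Of the 3 genes that restrain the signal, Pmepa1 and Ski changed in heart at day 4 and Pmepa1 in muscle at day 7. Pmepa1, a membrane protein that holds back receptor-activated SMADs, read 7.70, 13.0 and 8.88 CPM in depleted heart at day 4 and 19.2, 15.7 and 23.9 CPM in controls (log2 change -1.04 ± 0.30, edgeR adjusted p = 0.0331). Its muscle libraries at day 7 read 9.15, 7.38 and 8.58 CPM against 10.1, 16.8 and 20.8 CPM (-0.90 ± 0.26, edgeR adjusted p = 0.0406). The groups were apart in both, by under 1 CPM in muscle. The heart call was lost without F1, F3, W1 or W4 (edgeR adjusted p up to 0.134), and the muscle call without any one depleted library or control library 2 or 3 (up to 0.186). In bone its differences were -1.55 ± 0.36 at day 7, with overlapping arms, and -1.02 ± 0.46 at day 10.

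Ski, a co-repressor that binds SMADs in the nucleus, read 28.9, 27.9 and 22.4 CPM in depleted heart at day 4 and 35.0, 36.3 and 42.6 CPM in controls (log2 change -0.53 ± 0.16, edgeR adjusted p = 0.0403). That call was lost without any one of the 6 libraries (edgeR adjusted p up to 0.187). In muscle at day 4 its groups were also apart, at 47.6, 50.1 and 48.9 CPM against 89.2, 72.0 and 51.9 CPM, but the change of -0.54 ± 0.21 did not pass (edgeR adjusted p = 0.466). In bone its differences were -0.66 ± 0.19 and -0.77 ± 0.25. Smad7, the inhibitory SMAD induced by the pathway, passed in none of the tested comparisons between the arms, at group means of 2.77 to 9.86 CPM over all groups. Its log2 change was -0.87 ± 0.42 in heart at day 4, with groups apart (edgeR adjusted p = 0.201), and 0.41 ± 0.35 at day 7 (0.566), and its bone differences were 0.16 ± 0.38 and 0.55 ± 0.49.

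**Figure D2:**
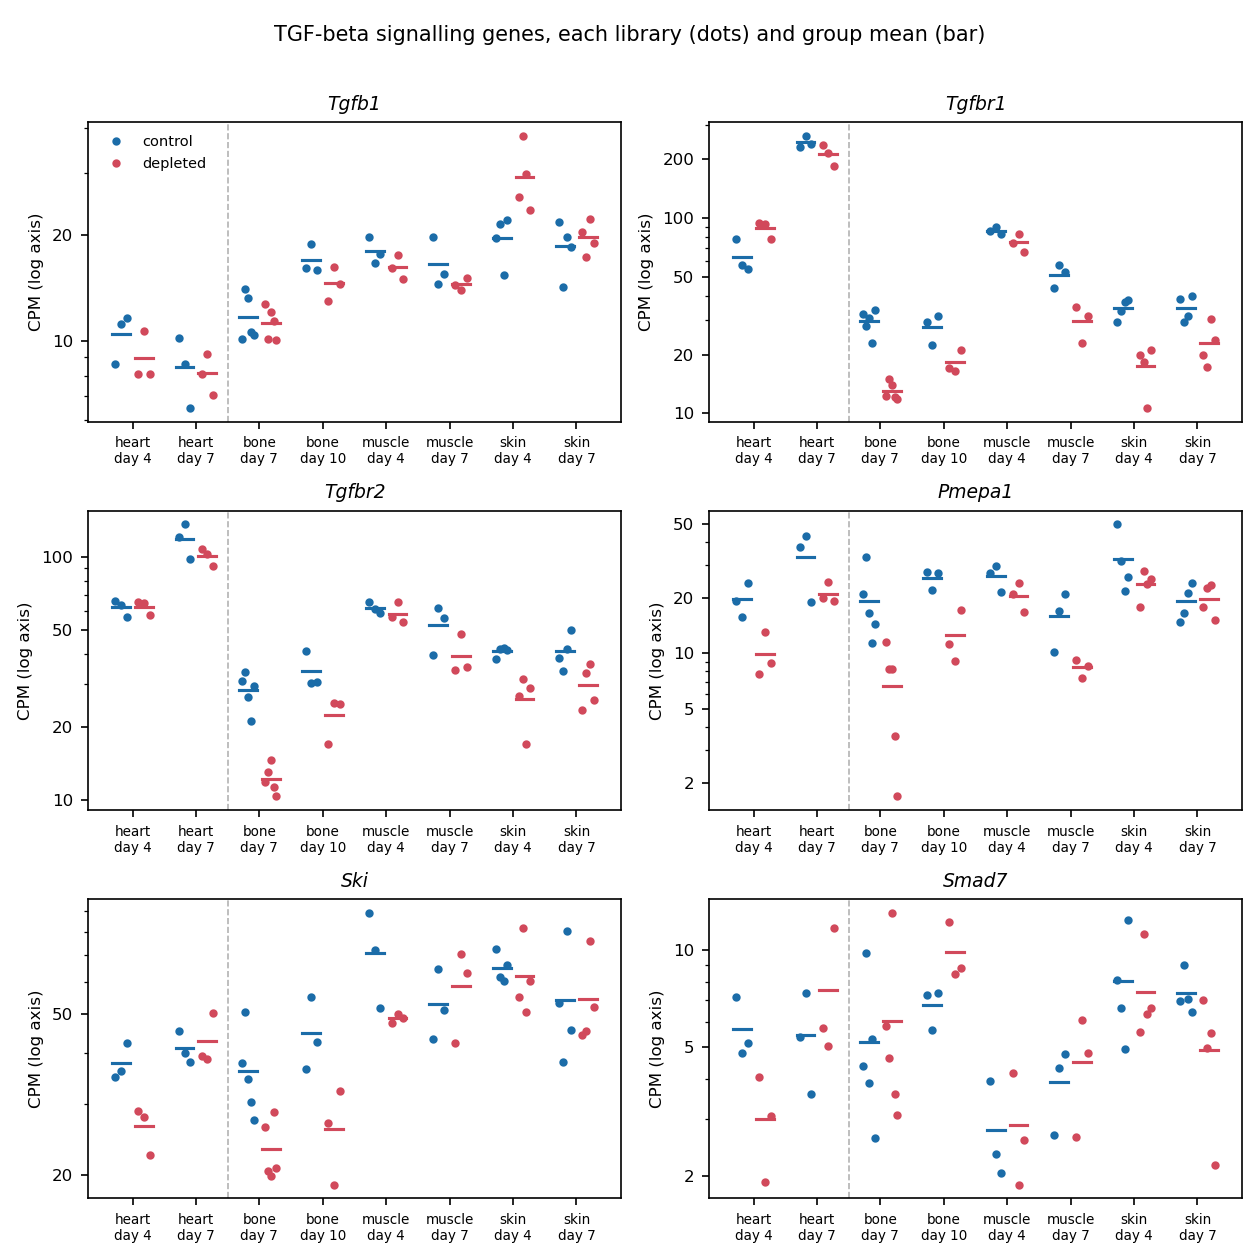
CPM (log axis) of the 6 TGF-beta signalling genes in each library (dots) with the group mean (bar), drawn as for the macrophage genes. Tgfbr1 is lower in the depleted arm in muscle at day 7 and skin at day 4, and Tgfb1 in depleted skin at day 4 averages 29.2 CPM against 19.6 CPM in controls.

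All 10 genes passed the filter on low counts in every tissue. Groups that do not overlap are common among all genes: lower in the depleted arm and apart were 15.5% in heart at day 4, 12.1% in heart at day 7, 12.3% in muscle at day 7, 7.77% in muscle at day 4, 4.9% in skin at day 4, 5.99% in skin at day 7, 7.84% in bone at day 7 and 17.5% in bone at day 10. Higher in the depleted arm and apart, as Tgfb1 in skin and Tgfbr1 in heart were at day 4, were 5.52% of all genes in skin and 13.6% in heart at that day. Separation of the arms is therefore a description here. In muscle at day 4, 0 of 10 were called by edgeR or by DESeq2 and 1 had an unadjusted p under 0.05, where 0.0542% of all genes tested were higher and 0.101% lower. Muscle at day 7 had 6 of 10 lower and 0 higher, beside 3.92% lower and 4.67% higher among all genes, and the 10 had a median log2 change of -0.81 beside -0.01 for all genes. Skin at day 4 had 5 of 10 lower and 0 higher, beside 1.45% lower and 2.12% higher among all genes (medians -0.77 and -0.01). Skin at day 7 had 4 of 10 lower and 0 higher, beside 3.27% and 2.95% (medians -0.58 and 0.00). The 4 genes lower in skin at day 7 were Cx3cr1, Fcrls, Olfml3 and Gpr34, and these were also among those lower in skin at day 4 and muscle at day 7. Heart at day 4 had 2 of 10 lower and 1 higher, beside 6.85% and 4.25% of all genes. Heart at day 7 had 2 of 10 lower and 0 higher, beside 1.56% and 1.58%. In bone, where nothing is read from it, 12.6% of genes were lower and 11% higher at day 7, and 8.22% and 8.95% at day 10, and 9 of the 10 genes had a negative log2 difference at each day.

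**Figure D3:**
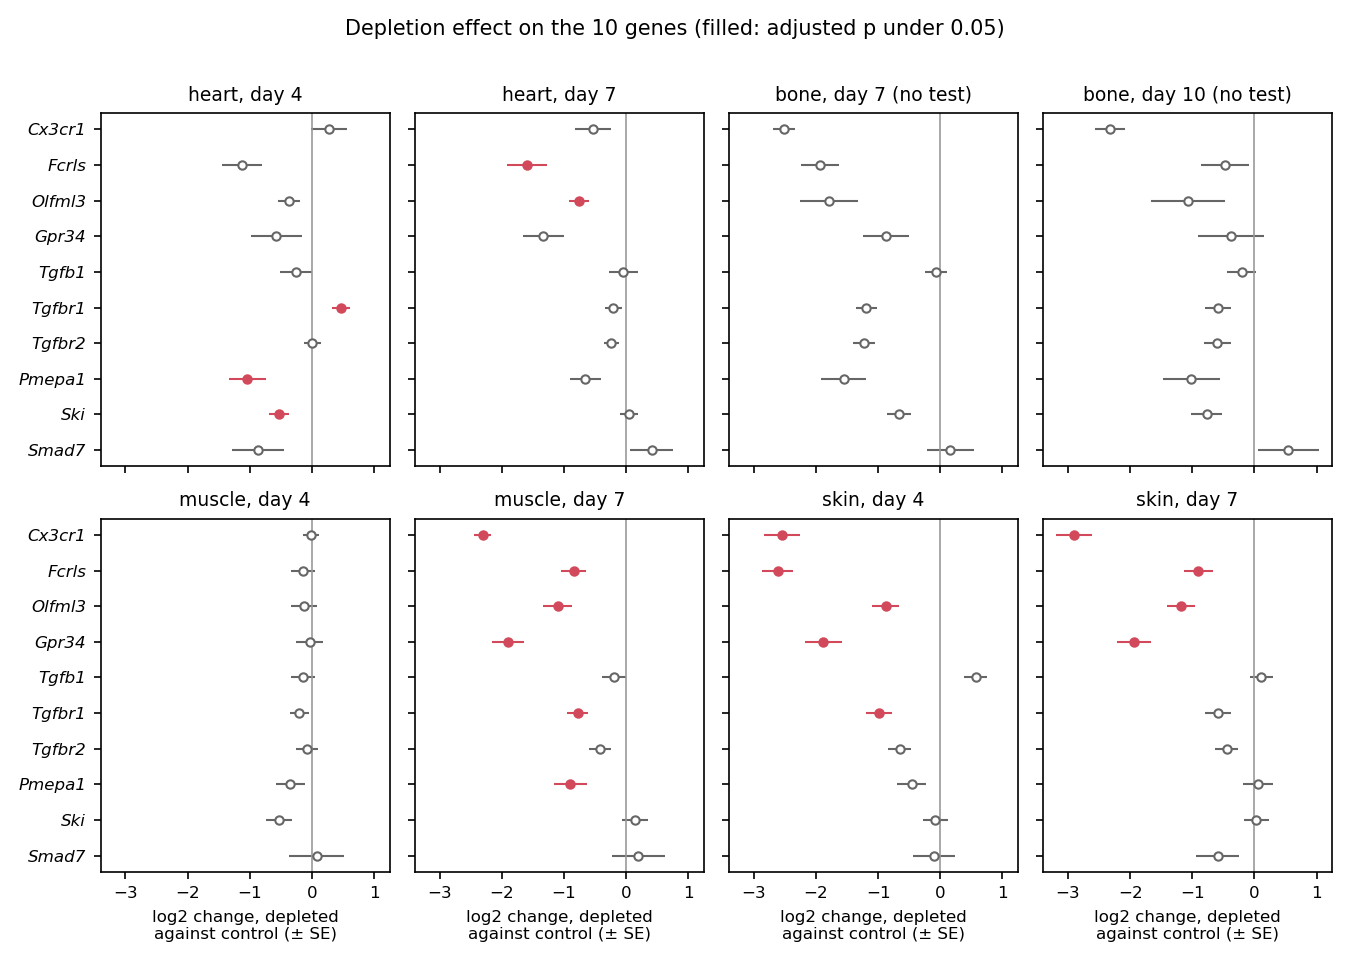
Log2 change of each gene in Treg-depleted against control libraries with its standard error, for 8 comparisons; filled points have an edgeR adjusted p under 0.05, and bone is shown with no test. In muscle at day 4 no gene was called and Cx3cr1 lies at -0.02, beside -2.31, -2.54 and -2.90 in muscle at day 7 and in skin at days 4 and 7.

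Whether the effect of depletion differed between days was tested as an interaction. In muscle the effect on Cx3cr1 was lower at day 7 than at day 4 by 2.29 ± 0.19 on the log2 scale (log2 -2.29, edgeR adjusted p = 3.87e-06), and the effect on Gpr34 changed by -1.86 ± 0.34 (edgeR adjusted p = 0.00698). These were the 2 of 10 genes called lower, beside 0.821% of all genes lower and 1.59% higher. In skin 1 of 10 was called: the effect on Fcrls was weaker at day 7 than at day 4 (difference 1.72 ± 0.33, edgeR adjusted p = 0.0128), beside 0.262% of all genes higher and 0.587% lower. In heart 0 of 10 were called by edgeR, 3 had an unadjusted p under 0.05 and DESeq2 called 1, beside 3.21% of all genes higher and 0.882% lower. The heart gene nearest the threshold was Tgfbr1 (-0.67 ± 0.19, edgeR adjusted p = 0.0559), with a positive change at day 4 and -0.20 ± 0.13 at day 7.

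Between tissues at day 4, depletion had less effect in muscle than in skin on Cx3cr1 (difference 2.52 ± 0.34, edgeR adjusted p = 3.09e-05) and Fcrls (2.47 ± 0.40, edgeR adjusted p = 0.000977). These were 2 of 10 genes called higher, beside 0.16% of all genes higher and 0.105% lower. Gpr34 had a difference of 1.83 ± 0.45 that did not pass (edgeR adjusted p = 0.0571), and that DESeq2 and the fit without the filter called. At day 7, 0 of 10 differed by edgeR or DESeq2 and 0 had an unadjusted p under 0.05, beside 2.26% of all genes higher and 0.516% lower. The differences at day 7 were 0.61 ± 0.35 for Cx3cr1, 0.08 ± 0.39 for Fcrls, 0.09 ± 0.53 for Olfml3 and 0.06 ± 0.45 for Gpr34. Missing the threshold does not show that the effects were equal.

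The genes called with the day after injury were higher at day 7 in heart and lower at day 7 in muscle, and the 2 tissues were not tested against each other. From day 4 to day 7 in control heart, 6 of 10 rose and 0 fell, beside 15% higher and 16.9% lower among all genes. Gpr34 rose by 2.84 ± 0.36, Tgfbr1 by 1.94 ± 0.14, Cx3cr1 by 1.44 ± 0.29, Olfml3 by 1.40 ± 0.17, Tgfbr2 by 0.93 ± 0.13 and Pmepa1 by 0.76 ± 0.26 on the log2 scale (largest edgeR adjusted p = 0.0351, for Pmepa1, which was lost without WT1, WT3, W1 or W3). In depleted heart, 7 of 10 rose and 0 fell, beside 13.7% higher and 13.7% lower among all genes. Those were Gpr34 (2.08 ± 0.38), Tgfbr1 (1.27 ± 0.14), Smad7 (1.21 ± 0.39), Pmepa1 (1.15 ± 0.29), Olfml3 (1.02 ± 0.17), Ski (0.70 ± 0.16) and Tgfbr2 (0.69 ± 0.13), with the Smad7 call lost without FDG3, F2 or F3. Cx3cr1 there had a change of 0.62 ± 0.29 (edgeR adjusted p = 0.138).

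In control muscle, 3 of 10 fell from day 4 to day 7 and 0 rose, beside 2.75% lower and 4.49% higher among all genes. They were Olfml3 (-1.22 ± 0.21, edgeR adjusted p = 0.00153), Tgfbr1 (-0.74 ± 0.16, 0.00735) and Cx3cr1 (-0.57 ± 0.13, 0.0114). The Cx3cr1 call was lost without day 4 library 2 or day 7 library 1, and the Tgfbr1 call without day 7 library 1. In depleted muscle, 7 of 10 fell and 0 rose, beside 8.72% lower and 10.7% higher among all genes. Cx3cr1 fell by 2.86 ± 0.14 (log2 -2.86, edgeR adjusted p = 1.34e-09), Gpr34 changed by -2.36 ± 0.26, Olfml3 by -2.19 ± 0.23, Tgfbr1 by -1.32 ± 0.17, Pmepa1 by -1.27 ± 0.26, Fcrls by -0.91 ± 0.20 and Tgfbr2 by -0.57 ± 0.18. The Tgfbr2 call (edgeR adjusted p = 0.0304) was lost without day 4 library 1 or 2 or day 7 library 1 or 3.

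In control skin 0 of 10 were called by edgeR or DESeq2 and 2 had an unadjusted p under 0.05, beside 1.42% of all genes higher and 0.848% lower. In depleted skin 1 of 10 rose, Fcrls (1.43 ± 0.25, edgeR adjusted p = 0.00245), beside 1.36% higher and 1.25% lower. In control bone 0 of 10 were called by edgeR, 2 had an unadjusted p under 0.05 and DESeq2 called 1, beside 0.0393% of all genes higher and 0% lower. In depleted bone 2 of 10 rose, Fcrls (1.37 ± 0.35, edgeR adjusted p = 0.0152) and Tgfbr2 (0.89 ± 0.20, edgeR adjusted p = 0.00777), beside 7.13% higher and 5.04% lower among all genes. The 1 gene called lower with time in depleted bone was Cx3cr1. Its bone libraries took part in its choice, so its calls with time in bone are not read as results. Its log2 difference of day 10 from day 7 was -0.997 ± 0.198 in controls and -0.81 ± 0.22 in the depleted arm, and the days did not overlap in either. The Fcrls call was lost without depleted library 2 or 3 of day 10, and the Tgfbr2 call without library 3.

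Among control macrophages at day 7, Fcrls and Gpr34 were lower in bone than in muscle and skin. Fcrls averaged 26.2 CPM ± 5.77 (SD, n = 5) in bone, 195 ± 35.7 (n = 3) in muscle and 101 ± 37.3 (n = 4) in skin. Gpr34 averaged 6.87 CPM ± 2.29 in bone, 39.6 ± 5.67 in muscle and 33.4 ± 9.51 in skin. Bone was lower than muscle in 4 of 10 genes, Fcrls (-2.89 ± 0.27, edgeR adjusted p = 2.31e-10), Gpr34 (-2.54 ± 0.31), Tgfbr2 (-0.88 ± 0.18) and Tgfbr1 (-0.80 ± 0.17), beside 7.32% of all genes lower and 6.28% higher. It was lower than skin in 5 of 10, Gpr34 (-2.30 ± 0.29), Fcrls (-1.93 ± 0.25), Tgfb1 (-0.65 ± 0.16), Ski (-0.56 ± 0.21) and Tgfbr2 (-0.52 ± 0.17), beside 14.1% lower and 11.5% higher. The Ski call was lost without any of 6 single libraries (bone 1, 3, 4 or 5, skin 1 or 3; edgeR adjusted p up to 0.293), and the Tgfbr2 call without bone 4 or skin 4 (up to 0.105). Muscle was higher than skin in 2 of 10, Fcrls (0.96 ± 0.27, edgeR adjusted p = 0.0142) and Tgfbr1 (0.56 ± 0.18, 0.0327), beside 5.17% higher and 6.76% lower. Fcrls was lost there without muscle 1 or skin 2, and Tgfbr1 without muscle 2 or 3 or skin 2 or 3. Cx3cr1 averaged 208, 182 and 146 CPM in bone, muscle and skin, and muscle and skin did not differ past the threshold (log2 difference 0.31 ± 0.23, edgeR adjusted p = 0.415).

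The other genes of the pathway were followed as lists chosen with earlier results known. The shares of all genes called, to set beside the list counts, were 4.67% higher and 3.92% lower in muscle at day 7, 2.12% and 1.45% in skin at day 4, 2.95% and 3.27% in skin at day 7, 4.25% and 6.85% in heart at day 4 and 1.58% and 1.56% in heart at day 7, so that counts of 1 or 2 in a list are not read as a result about it. In muscle at day 4, 0 genes passed in any of the 6 lists of ligands and activators, receptors, SMADs, SMAD regulators, targets and the microglia programme. Of all genes tested there, 0.0542% were higher and 0.101% lower, so a count of 0 is not read as a result about a list. The targets in muscle at day 7 split, with 3 of 10 tested higher and 1 lower. Id1 rose by 1.25 ± 0.37 (edgeR adjusted p = 0.0438), and Id3 fell (-1.18 ± 0.21, edgeR adjusted p = 0.00148). Lrrc32, which anchors latent TGF-beta at the cell surface, averaged 11.4 CPM ± 3.14 in depleted and 4.03 ± 0.14 in control libraries (SD, n = 3 each; edgeR adjusted p = 0.0132), and the ligand and activator list had 1 of 14 higher and 2 lower. Of 21 genes of the microglia programme 3 were lower and 1 higher. The purinergic receptors P2ry12 (-1.53 ± 0.31) and P2ry13 (-1.36 ± 0.35) fell with Gas6, a bridging molecule of dead-cell uptake (-1.99 ± 0.21). The list medians in muscle at day 7 ran from -0.25 for the microglia programme to 0.12 for ligands and activators.

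In skin at day 4, Id1 rose by 1.36 ± 0.37 (edgeR adjusted p = 0.0391) and Gas6 fell (-1.73 ± 0.28, 0.000874), among 2 of 10 targets higher and 1 lower and 5 of 21 microglia programme genes lower. In skin at day 7, 4 of 10 targets were lower and 0 higher. Id3 fell (-1.89 ± 0.26, edgeR adjusted p = 6.86e-05), with Thbs1, a matrix protein that activates latent TGF-beta (-1.34 ± 0.29, 0.00963), and Smad3, a carrier of the signal (-1.42 ± 0.37, 0.0199). In heart at day 4, 2 of 11 targets were lower and 0 higher, among them Ccn2, a matricellular protein, at a mean of 1.43 CPM in the depleted arm and 6.28 CPM in controls (log2 change -1.98 ± 0.43 SE, n = 3 each, edgeR adjusted p = 0.00513). In heart at day 7, 1 of 11 ligands and activators was higher, and 0 genes of the other lists were called. The receptor list had 0 genes called in heart, muscle or skin. The fractalkine list, the ligand of CX3CR1 and the proteases that shed it, had 0 of 3 tested genes called in muscle and 0 of 2 in heart and skin at either day.

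In bone at day 7, 8 of 13 ligands and activators, 4 of 7 receptors, 6 of 10 targets and 14 of 21 microglia programme genes were lower in the depleted arm, and at day 10 2, 2, 4 and 7 were. These counts come from the comparison that took part in the choice of genes and stand beside the 12.6% and 8.22% of all genes given above. Among them Tmem119 averaged 6.96 CPM ± 2.74 (SD, n = 5) against 30.6 ± 7.21 at day 7, and Trem2, a lipid receptor, 83.2 ± 23.8 against 358 ± 72.8. P2ry12, of the same microglia list, was nearly equal at day 7, at 5.291 CPM ± 1.392 in the depleted arm and 5.744 ± 1.655 in controls. At day 10 it averaged 6.293 against 4.3 CPM, with overlapping arms. Tgfbr3 had 0.409 CPM ± 0.277 in depleted bone and 12.01 ± 25.1 in controls at day 7, a spread between the control libraries larger than their mean. With the library number as a block, 1 receptor and 9 microglia programme genes were lower at day 10. That fit held all 16 bone libraries, so same-numbered libraries of days 7 and 10 shared a block.

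**Figure D4:**
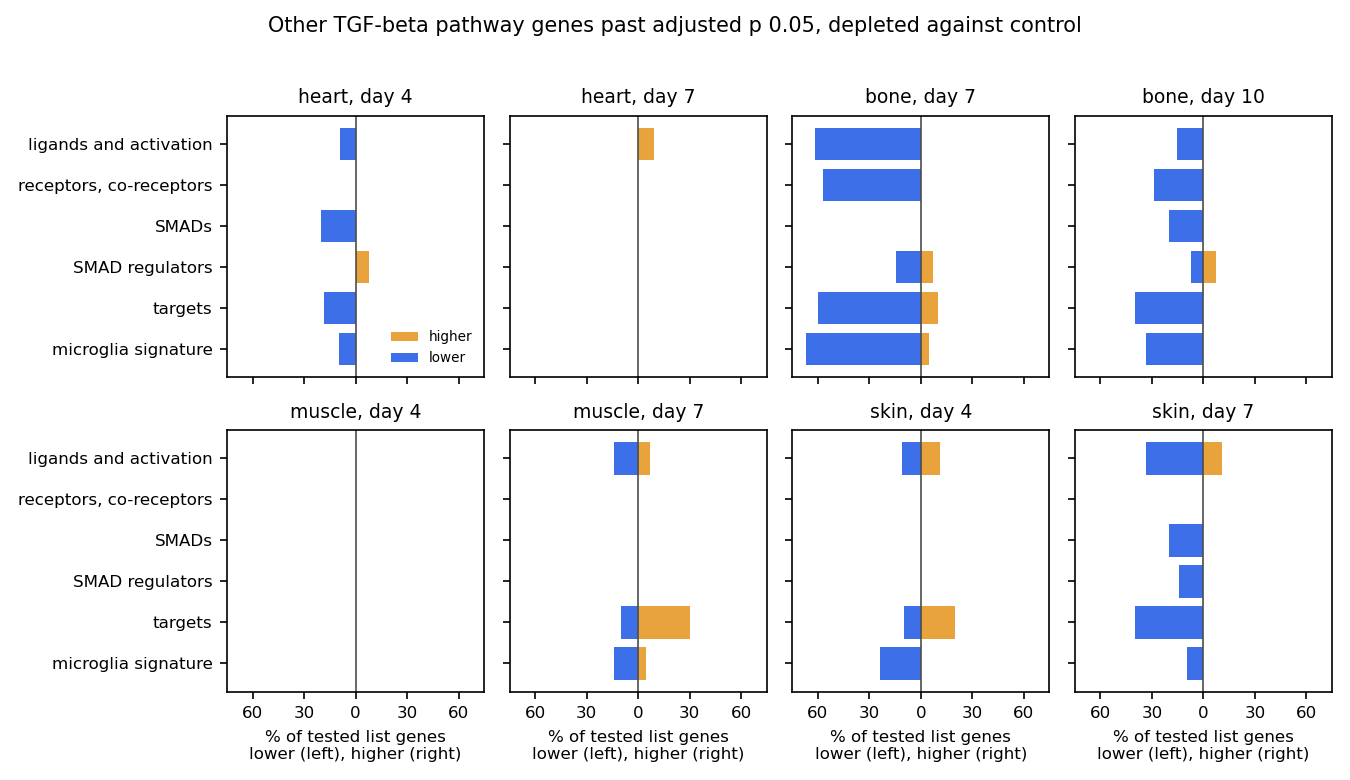
Percent of the tested genes of each TGF-beta list (vertical) with an edgeR adjusted p under 0.05, lower in the depleted arm to the left and higher to the right, for 8 comparisons. Muscle at day 4, where 0.0542% of all genes tested were higher and 0.101% lower, has no bar. Bone, which took part in the choice of the genes, has the longest bars to the left, with 14 of 21 microglia programme genes at day 7.

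Markers of other cell states moved with these results. The summed level of 7 classical monocyte markers, Ly6c2 and Ccr2 among them, was higher in every depleted library than in any control in each comparison except muscle at day 4. In muscle it spanned 1437 to 2200 CPM in depleted and 1528 to 1713 CPM in control libraries at day 4, and 2825 to 3451 against 1109 to 1515 CPM at day 7. In skin it spanned 3901 to 6125 against 1925 to 2792 CPM at day 4 and 3180 to 4252 against 1320 to 1702 CPM at day 7, with 4 of 7 markers called higher at each day. In bone it spanned 6934 to 8491 against 2871 to 4445 CPM at day 7 and 6461 to 7637 against 2476 to 3427 CPM at day 10. In heart, where the arms overlapped for Cx3cr1, it spanned 3803 to 5550 against 2202 to 3030 CPM at day 4 and 1105 to 1739 against 780.9 to 1049 CPM at day 7.

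The 7 non-classical monocyte markers, which mark cells high in Cx3cr1, summed to 219 to 293 CPM in depleted and 334 to 417 CPM in control skin at day 7, and to 248 to 457 against 368 to 470 CPM in muscle at day 7. In skin at day 4 the arms were narrowly apart (259.5 to 329.1 against 329.4 to 380.2 CPM). In bone they overlapped at day 7 (285.1 to 438.2 against 373.5 to 474.2 CPM) and at day 10 (299.4 to 340.4 against 334.4 to 465.2 CPM). They also overlapped in heart at both days and in muscle at day 4. Neutrophil markers summed to 1109 to 2924 CPM in depleted muscle at day 7 and 197 to 242 CPM in controls, with 6 of 11 tested called higher. In bone they spanned 9026 to 28510 against 5842 to 13650 CPM at day 7 and 17660 to 32180 against 5169 to 9576 CPM at day 10. Skin at day 7 went the other way in the median, with 344 to 1908 CPM (median 581.8) in depleted libraries and 1114 to 1923 CPM (median 1242) in controls. Mast cell, basophil and eosinophil markers summed to 145 to 575 CPM in depleted and 10.3 to 27.5 CPM in control skin at day 4, and to 182 to 376 against 10.9 to 13.0 CPM in muscle at day 7. Fibroblast markers, of a cell type that also expresses TGF-beta genes and Olfml3, spanned 126 to 1410 against 962 to 3491 CPM in bone at day 7 and 1136 to 1479 against 1176 to 1271 CPM in muscle at day 7. They were lower and apart in bone at day 10 (1793 to 2144 against 3006 to 6043 CPM) and in heart and muscle at day 4. Their sums overlapped in skin at both days and in heart at day 7. The part of these cell types in the changes of the 10 genes was not tested.

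Genes with the most similar pattern were ranked by Pearson's r of log2(CPM + 1) over the 44 libraries of bone, muscle and skin, among 9649 genes. These libraries share tissue, arm and day, so r is given as a description. Nearest to Cx3cr1 were Bmyc (r = 0.905), Mef2c (0.879), Hpgd (0.87), Susd3 (0.855), Ifit3b (0.853) and Sptssa (0.826). In the 12 heart libraries, which took no part in the ranking, the same genes had r = 0.91, 0.899, 0.76, 0.826, -0.04 and 0.671 with Cx3cr1, so that Ifit3b did not follow it there. Nearest to Tgfbr1 were Syngr1 (0.936), Hexa (0.913), Asah1 (0.897), Tmem141 (0.897), B3galnt1 (0.897) and Tgfbr2 (0.894). In heart B3galnt1 and Tgfbr2 had r = 0.959 and 0.951 with Tgfbr1, and Hexa had -0.01. Nearest to Pmepa1 were Mmp14 (0.867), Pdgfa (0.86), Emp1 (0.854), Bvht (0.811), Mdfic (0.809) and Sox4 (0.801), of which Sox4 and Pdgfa had r = 0.866 and 0.742 in heart and Emp1 had -0.14. Among the 10 genes, Cx3cr1 followed Tgfbr1 (r = 0.78 in 44 libraries, 0.847 in heart) more than Tgfb1 (-0.22 and -0.49).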

How the data were processed

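Bulk 3′ RNA libraries with molecular identifiers were made from sorted monocytes and macrophages, per the labels' protocols. The authors deposited a table of counts per gene for heart (12 libraries) and a table of expected counts for bone, muscle and skin (44 libraries). In the second table, 19.4% of the non-zero values were not whole numbers (tolerance 0.01). STAR, featureCounts and limma are named for both tables and Salmon for heart, on GRCm38 and, for the second table, also GRCm39, per the submitters' processing notes. Expected counts were rounded. The 6 heart columns without a day in their name were assigned to day 7.

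Genes were tested per tissue, 4 groups in 1 model, with edgeR 4.0.16 (R 4.3.3): filterByExpr, TMM factors, robust quasi-likelihood test and Benjamini-Hochberg adjustment over all genes, with a threshold of 0.05. Comparisons between tissues used a 12-group model of the second table. SE is the log2 change divided by the root of F. The fits were tested on simulated data. Pathway genes are named where called, with at least 5 CPM in a group and a log2 change of at least 1, and likeness was ranked among genes with at least 10 CPM in a group. One pathway gene that met this rule is not reported here by name. Members and lists were chosen with earlier results of these data known. Members were located in GENCODE vM21 annotation, and promoters are from RefSeq. Alternatives were RLE factors, no filter, DESeq2 1.42.0, the compared groups alone, each library left out, a replicate block and, in bone, Rn18s-rs5 as a covariate. Replicate pairs of a group differed beyond sampling noise (chi-square per degree of freedom 5.47 to 28.8 over 74 pairs). Same-numbered libraries of the arms deviated together in every pair in bone at day 10 (r = 0.103 to 0.181) and skin at day 7 (0.0795 to 0.316). In the other comparisons at least 1 pair had a negative r.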

Additional observations from a re-analysis of the deposited data

Results flagged for a closer look

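In groups of 4 or 5 libraries, 60 sets of member values were screened for a library far from the others, and 3 were found, where chance gives about 1 in 20. Smad7 read 13.1 CPM in depleted bone library 3 at day 7, and 3.09 to 5.83 CPM in the other 4. Olfml3 read 9.21 CPM in depleted skin library 3 at day 4, and 13.7 to 14.3 CPM in the others. Fcrls read 155 CPM in control skin library 4 at day 4, and 111 to 113 CPM in the others.

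The effect of depletion differed between groups, by an interaction test, in 5 cases. In muscle, day 7 minus day 4, the difference was -2.29 for Cx3cr1 and -1.86 for Gpr34. In skin, day 7 minus day 4, it was 1.72 for Fcrls. At day 4, muscle minus skin, it was 2.52 for Cx3cr1 and 2.47 for Fcrls.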

How the results depend on the processing

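Outside bone depletion, 63 member values passed the threshold, and 41 of these passed under every alternative run, with 22 lost under at least 1. Of 157 that did not pass, 17 passed under at least 1. The counts here include Cx3cr1 with time in bone, whose calls are not read as results because its bone values took part in its choice. No called value changed sign. Without the filter on low counts, 4 members were called in heart at day 7 (Gpr34 and Pmepa1 added), 1 in the heart interaction (Tgfbr1), 1 with time in control bone (Cx3cr1), 1 with time in control skin (Pmepa1) and 1 between control muscle and skin (Fcrls). DESeq2 called 1 in the heart interaction and 1 with time in control bone, and the compared groups alone called 1 in control bone; the cause was not tested. With 1 library left out, members called ranged from 0 to 2 in heart at day 4 (3 with all), 0 to 2 in heart at day 7, 0 to 1 in the heart interaction, 0 to 4 with time in depleted bone (3 with all, Cx3cr1 included), 1 to 4 with time in control muscle (3 with all) and 0 to 2 between control muscle and skin. In bone the Cx3cr1 difference ranged from -2.59 to -2.39 at day 7 and from -2.50 to -2.20 at day 10 with a library left out. With the replicate block it was -2.54 (day 7) and -2.32 (day 10). The block here was fitted on the compared groups alone, so this fit differs from the main one in both the block and the libraries used. It called 0 members in muscle at day 4, 5 at day 7 (Pmepa1 lost, edgeR adjusted p = 0.118), 4 in skin at day 4 (Olfml3 lost, 0.057) and 4 at day 7. Same-numbered libraries deviated together in every pair only in bone at day 10 and skin at day 7 (r from -0.2 to 0.316 over all comparisons). Heart columns carry no such numbers. Whether depth limited the members of low level was not tested.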
